A study of Mus musculus with 65 samples.

Results

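Cells of the embryonic mouse cortex with and without Sp8 transcripts were compared after cells with neuronal markers had been left out. Cells were kept where their reads in genes summed to 1000000 or more and where Neurod6, Tbr1 and Dlx5 each lay below 10 counts per 1000000 reads (CPM). Of 65 cells, 30 met this rule. The groups were then chosen by the measured level of Sp8 itself, at 10 CPM or more or below it, which gave 18 Sp8-positive and 12 Sp8-negative cells. Of the 35 cells left out, 21 had Neurod6 or Tbr1, transcription factor genes of excitatory cortical neurons, 11 others had Dlx5, a homeobox gene of the ventral forebrain and of interneurons, and 3 had too few reads.

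Both groups came from C57BL/6J embryos at E13.5, and no allele or treatment separated them. The cortex was taken without the ganglionic eminences, the embryos' brains were pooled before dissociation, and living cells, which kept out propidium iodide, were sorted singly for full-length SMARTer cDNA libraries sequenced on a HiSeq 2000. All cells are labelled as neural progenitors, a label that no sorting marker stood behind in the protocol. The pool counts as 1 sample, since no animal is named. Cells are therefore not replicates, no p-value or standard error was made from them, and each interval or SD below describes these cells only. Titles divide the cells into 3 numbered sets that the labels do not explain, treated here as possible batches. The Sp8-positive cells numbered 9, 1 and 8 in title sets 1, 2 and 3, and the Sp8-negative cells 2, 3 and 7, so that only title set 3 holds 3 or more cells of each group.

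Sp8 is a zinc-finger transcription factor of the Sp family. In the cortical primordium it is known for a graded expression in progenitors, strongest towards the front and the midline, where FGF signals from the anterior telencephalon sustain it and where it takes part in setting the size of frontal areas. Nr2f1, Emx2 and related factors are strongest at other positions and act against it. Sp8 is also known from interneuron lineages of the ventral forebrain.

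The values of Sp8 chose the groups and are given as a description. Sp8 in the Sp8-positive cells had a lowest value of 17.9 CPM, a median of 172 CPM and a highest value of 1433 CPM, with a mean of 365 ± 412 CPM (SD, n = 18). In the Sp8-negative cells the lowest value was 0, the median 0.15 CPM and the highest 1.72 CPM (n = 12). The nearest values on either side of the 10 CPM threshold were thus 17.9 and 1.72 CPM, and the next Sp8-positive cell had 63.7 CPM. In title set 3 the median was 120 CPM in the 8 Sp8-positive cells and 0.15 CPM in the 7 Sp8-negative cells.

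**Figure D1:**
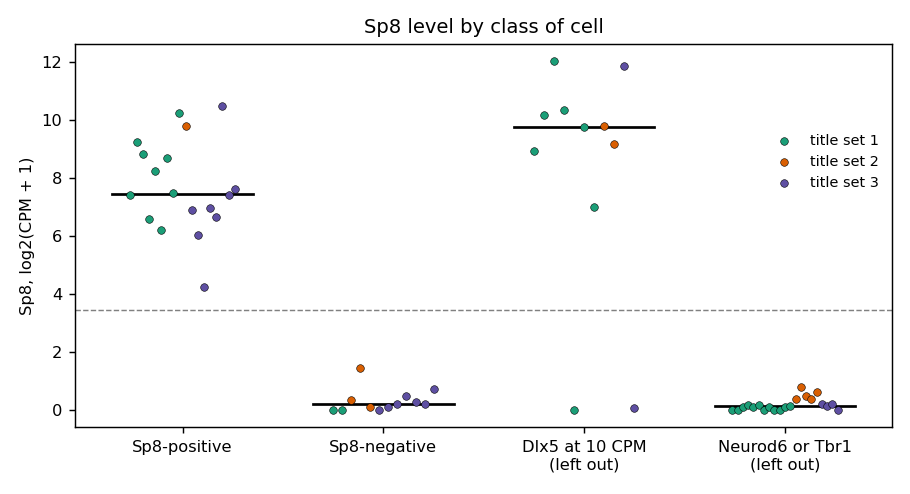
Sp8 as log2(CPM + 1), one point per cell, coloured by title set, for the Sp8-positive and Sp8-negative cells and for the 2 main classes of cells left out. Black lines are medians and the dashed line is 10 CPM; no kept cell lies between 17.9 CPM, the lowest Sp8-positive cell, and 1.72 CPM, the highest Sp8-negative cell.

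The Sp8-positive cells had between 11222300 and 32130600 reads in genes, with a median of 19488800, and the Sp8-negative cells between 7672140 and 25398700, with a median of 17010000. At these depths 10 CPM is at least 76.7 reads, so that expression in a cell means 10 CPM or more below. A median of 3134 genes reached 10 CPM in the Sp8-positive cells, with a range of 1712 to 3832, against 2529 in the Sp8-negative cells, with a range of 1783 to 3361. In title set 3 these medians were 2438 genes in Sp8-positive and 2223 in Sp8-negative cells. The number of expressed genes therefore differed between the groups along with the title sets. Values are also given below for the 10 Sp8-positive and 10 Sp8-negative cells with 2000 to 3400 expressed genes. This range was chosen after the data were seen, and its cells are called cells of like gene number. The range left out most Sp8-positive cells of title set 1, whereas the Sp8-negative cells left out were all of title set 3. The mix of title sets thus changed with the range, so that values among these cells do not separate gene number from title set.

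The label of non-neuronal progenitors was checked against markers. At least 1 of Sox2, Pax6, Hes1, Nes and Sox9, genes of dividing apical progenitors, was expressed in 16 of 18 Sp8-positive cells and in 12 of 12 Sp8-negative cells. The 12 include the Sp8-negative cell with collagen genes described below. At least 2 of the 5 genes were expressed in 16 of 18 Sp8-positive and 8 of 12 Sp8-negative cells. In title set 3 these counts were 7 of 8 and 4 of 7. The neuronal microtubule gene Dcx was expressed in 2 Sp8-positive cells and in no Sp8-negative cell, and Stmn2, a neuronal tubulin regulator, in 3 Sp8-positive cells and 1 Sp8-negative cell. The summed level of the neuronal maturation list had a median of 4099 CPM in Sp8-positive and 3757 CPM in Sp8-negative cells, with highest values of 19748 CPM in Sp8-positive and 17413 CPM in Sp8-negative cells, so that cells of both groups carried neuronal transcripts although Neurod6 and Tbr1 were low. The interneuron genes Dlx2, Sp9 and Gad2 were below 10 CPM in all 30 cells, and Dlx1 reached it in 1 Sp8-negative cell, at 13.8 CPM. Collagen genes of mural and meningeal cells were expressed in 1 Sp8-positive and 1 Sp8-negative cell. The summed level of the 7 measured mural and meningeal genes reached 19800 CPM and 11962 CPM in those cells, against a median of 0.31 CPM over the Sp8-positive and 0.17 CPM over the Sp8-negative cells.

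Across the transcriptome the groups differed by degrees rather than by separate sets of genes. The log2 difference used below is the mean of log2(CPM + 1) in the Sp8-positive cells minus that in the Sp8-negative cells, for 7936 genes with a mean of 10 CPM or more over the 30 cells. A gene passed the size rule where this difference was at least 1 in size, the ratio of mean CPM lay on the same side and title set 3 had the same sign. By this rule 1686 genes (21.2%) were higher and 656 genes (8.27%) lower in the Sp8-positive cells. The median difference over all tested genes was 0.35, and 62.7% of them lay above 0. Within title set 3 the median was 0.04. With that overall median of 0.35 subtracted, 1135 genes were higher and 1176 lower, a share of higher calls of 49.1% in place of 72.0%. Among cells of like gene number the median difference was 0.05, with 18.1% of genes higher and 17.5% lower. List counts given below for these cells stand against those shares. With title set as a block, which averages the differences within the sets, the median was 0.17, with 18.3% higher and 11.4% lower.

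Cell to cell spread was wide. The median SD of log2(CPM + 1) within a group was 2.79, and only 71 genes (0.895%) were higher and 11 genes (0.139%) lower by more than their own SD. Of 216 tested genes in the 23 lists described below, 6 were among them: Spry2, Hey1, Gli3, Nes, Bcl11a and Bcl11b, all higher in the Sp8-positive cells. A gene past the size rule in a list is therefore a difference of means between cells that mostly overlap. A gene that reaches a mean of 10 CPM through the Sp8-positive cells alone had to differ, so that counts over tested members are descriptions. Without that filter the median difference was 0.975 for FGF and MAPK targets, 1.10 for Notch genes, 0.67 for Hedgehog genes, 0.895 for apical progenitor genes and -0.45 for intermediate progenitor genes, against 0.18 for all genes.

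**Figure D2:**
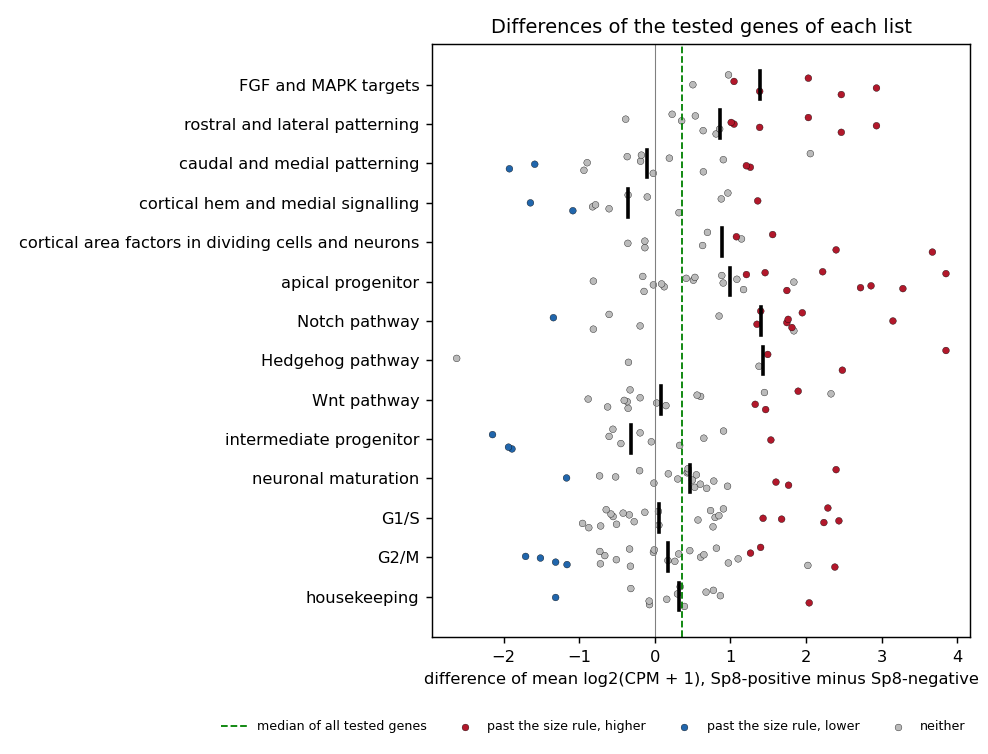
Log2 difference, Sp8-positive minus Sp8-negative, of each tested gene in 14 lists (points; red and blue past the size rule, grey otherwise), with list medians as black bars and the median of all tested genes, 0.35, as the dashed line. FGF and MAPK targets, Notch genes and Hedgehog genes have medians of 1.39, 1.40 and 1.44, and intermediate progenitor genes one of -0.32.

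Genes that FGF signalling is known to induce were expressed in more of the Sp8-positive cells. At least 1 of the 10 measured FGF and MAPK targets, apart from the cyclin gene Ccnd1, was expressed in 10 of 18 Sp8-positive cells (55.6%, exact 95% Clopper-Pearson interval 30.8 to 78.5%) and in 2 of 12 Sp8-negative cells (16.7%, 2.09 to 48.4%). These intervals overlap and cover counting error only. Counting Ccnd1 as well adds cells to both groups and brings their shares closer. With it, a median of 2 targets was expressed per Sp8-positive cell (range 0 to 8) and 0.5 per Sp8-negative cell (range 0 to 3). Without Ccnd1, the counts in title set 3 were 3 of 8 Sp8-positive cells and 1 of 7 Sp8-negative cells. Of those 3, 1 was the Sp8-positive cell with collagen genes, whose mural and meningeal genes summed to 19800 CPM. Of 11 measured targets, Ccnd1 included, 7 were tested, and 5 were higher and none lower, where 21.2% of all genes were higher. Among the 5, Spry2, Etv5, Il17rd and Spry1 passed the filter through the Sp8-positive cells alone, with means below 1 CPM in the Sp8-negative cells. The median log2 difference of the tested targets was 1.39 over all cells, 1.12 in title set 3 and 0.51 among cells of like gene number. Among the latter 3 of 7 tested targets were higher and 1 lower, against 18.1% and 17.5% of all genes. Spry2, Etv5, Il17rd and Spry1, picked after their values were seen, reached 10 CPM in no Sp8-negative cell (0 of 12, up to 26.5%) and at least 1 of them did so in the same 10 Sp8-positive cells.

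Spry2 encodes a Sprouty protein, a feedback inhibitor of receptor tyrosine kinase signalling. In the Sp8-positive cells Spry2 ranged from 0 to 1442 CPM with a median of 13.8 CPM, and in the Sp8-negative cells from 0 to 3.70 CPM with a median of 0. It was expressed in 9 of 18 Sp8-positive and 0 of 12 Sp8-negative cells, a log2 difference of 2.93 (within-group SD 2.54), and of 2.08 in title set 3. Leaving out the highest cell of each group gave 2.68, so that no single cell carried the difference. The 9 cells include the Sp8-positive cell with collagen genes.

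Etv5, an ETS transcription factor downstream of FGF receptors, had a median of 1.38 CPM and a highest value of 426 CPM in the Sp8-positive cells, and a median of 0 and a highest value of 0.98 CPM in the Sp8-negative cells. It was expressed in 6 Sp8-positive and 0 Sp8-negative cells, with a log2 difference of 2.47, just under its within-group SD of 2.51. Il17rd, also known as Sef, another inhibitor of the FGF pathway, was expressed in 4 Sp8-positive and 0 Sp8-negative cells (difference 2.03), and Spry1 in 3 Sp8-positive and 0 Sp8-negative cells (difference 1.39). Without its highest cell Spry1 fell below the size used here, at 0.93. Dusp6, the phosphatase that switches off the ERK kinases, was expressed in 3 Sp8-positive cells and 1 Sp8-negative cell (difference 1.05). Not every target followed: Spry4 was expressed in no Sp8-positive cell and in 1 Sp8-negative cell, at 240 CPM, and Etv4 in the same numbers of cells.

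The promoters of these 4 genes are printed because Sp proteins bind GC boxes and ETS factors bind a GGAA core. Each stretch runs from 250 bases before to 50 after an annotated start, on the gene's strand, from RefSeq on GRCm38.p6, a later build than the mm9 of the counts. Capitals mark the GC box GGGCGG and the ETS core CCGGAA, searched on both strands, which do not overlap each other as words. Of 32851 mouse promoters of this length, 35.7% hold the GC box and 14.9% the ETS core.
Spry2 (chr14:105896770-105897069, minus strand): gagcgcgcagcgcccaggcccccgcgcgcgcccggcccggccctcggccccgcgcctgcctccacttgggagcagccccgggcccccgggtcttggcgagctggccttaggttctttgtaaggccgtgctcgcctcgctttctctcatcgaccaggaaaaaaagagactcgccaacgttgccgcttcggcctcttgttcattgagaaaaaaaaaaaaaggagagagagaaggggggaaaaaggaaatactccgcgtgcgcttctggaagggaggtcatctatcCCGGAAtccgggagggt
Etv5, first start (chr16:22439521-22439820, minus strand): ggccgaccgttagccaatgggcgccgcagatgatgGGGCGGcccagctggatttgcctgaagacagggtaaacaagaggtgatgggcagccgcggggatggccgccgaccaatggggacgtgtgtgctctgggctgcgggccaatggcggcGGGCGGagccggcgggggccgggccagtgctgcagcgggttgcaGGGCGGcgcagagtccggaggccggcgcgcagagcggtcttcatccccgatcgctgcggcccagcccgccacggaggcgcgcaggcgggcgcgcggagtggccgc
Il17rd (chr14:27038751-27039050, plus strand): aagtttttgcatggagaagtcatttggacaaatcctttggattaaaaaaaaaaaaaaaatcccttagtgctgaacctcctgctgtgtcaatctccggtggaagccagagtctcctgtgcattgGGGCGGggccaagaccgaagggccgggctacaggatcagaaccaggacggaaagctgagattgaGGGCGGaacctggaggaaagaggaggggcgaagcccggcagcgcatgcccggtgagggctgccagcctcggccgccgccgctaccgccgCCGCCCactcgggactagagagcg
Spry1 (chr3:37639697-37639996, plus strand): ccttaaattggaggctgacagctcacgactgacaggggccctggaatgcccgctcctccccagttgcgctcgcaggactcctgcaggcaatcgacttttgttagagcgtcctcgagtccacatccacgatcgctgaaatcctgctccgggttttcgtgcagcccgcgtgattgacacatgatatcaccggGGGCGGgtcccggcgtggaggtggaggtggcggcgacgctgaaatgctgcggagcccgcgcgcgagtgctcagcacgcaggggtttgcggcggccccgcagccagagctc
The Etv5 and Il17rd stretches hold 3 GC boxes each, that of Spry1 holds 1, and that of Spry2 holds none but has 1 ETS core. The second annotated start of Etv5 and the promoter of Dusp6 hold neither word. A match is a description of the letters and not a binding site.

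The FGF targets often occurred in the same cells, and those with Spry2 expressed Top2a. Of the 9 Sp8-positive cells with Spry2, 5 also expressed Etv5, 4 Il17rd and 3 Spry1, and each cell with Il17rd, Spry1 or Dusp6 also had Spry2. All 9 expressed the mitotic topoisomerase Top2a, 8 expressed the radial glia filament gene Nes and 8 the Notch target Hes1, while none expressed Eomes, the T-box gene of intermediate progenitors. Over all 18 Sp8-positive cells, Top2a was expressed in 13, Hes1 in 13, Nes in 10 and Eomes in 3. The 10 cells with Spry2, Etv5, Il17rd or Spry1 had 2209 to 3832 expressed genes, and the other Sp8-positive cells 1712 to 3451. Joint expression was not compared among cells of like gene number. Median Sp8 was 131 CPM in the 6 cells with Etv5 and 503 CPM in the 4 cells with Il17rd, against 172 CPM over all Sp8-positive cells. Spearman's rho between Sp8 and Spry2 within the 18 Sp8-positive cells was 0.19, which is weak in counts this sparse.

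**Figure D3:**
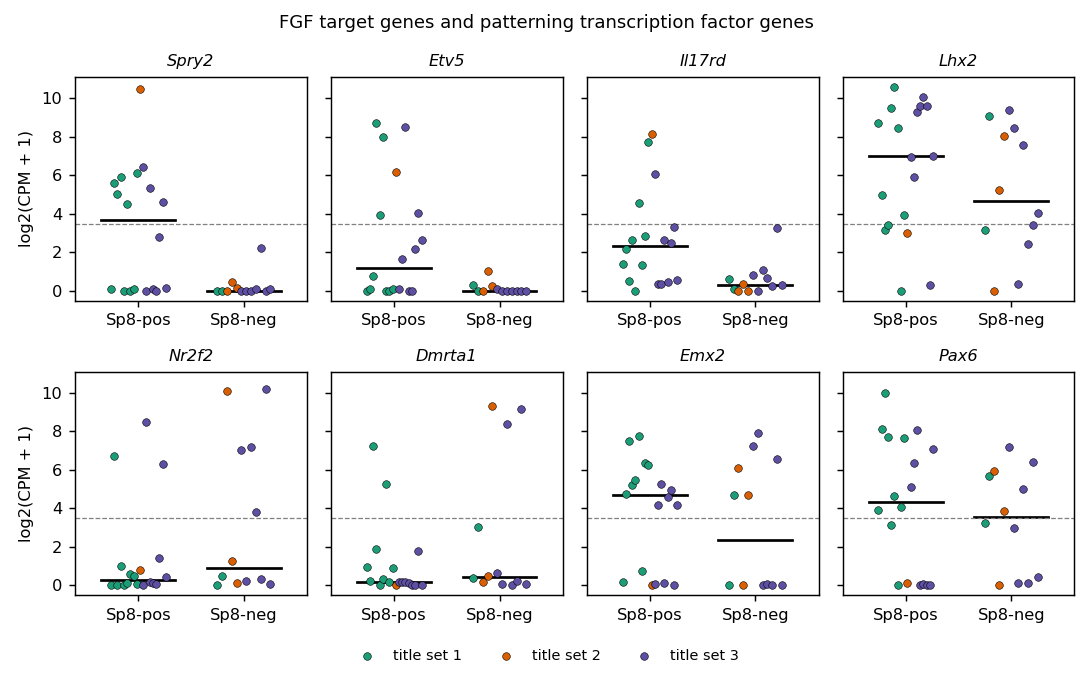
Log2(CPM + 1) of FGF targets (Spry2, Etv5, Il17rd) and patterning genes in each cell, Sp8-positive left and Sp8-negative right, coloured by title set, with medians as black lines and 10 CPM dashed. Spry2 lies above the dashed line in 9 Sp8-positive and 0 Sp8-negative cells, whereas the ranges of Pax6 and Emx2 overlap. The highest Pax6 value is 1027 CPM in Sp8-positive and 144 CPM in Sp8-negative cells.

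Upstream of these targets the FGF genes themselves differed less. The receptor gene Fgfr1 was expressed in 9 Sp8-positive and 3 Sp8-negative cells, a log2 difference of 1.01 that passed the size rule. Fgfr3, a receptor higher in caudal cortex, was expressed in 4 Sp8-positive and 3 Sp8-negative cells (difference -0.39). The ligand gene Fgf15 was expressed in 3 Sp8-positive cells and 1 Sp8-negative cell and Fgf17 in 2 Sp8-positive and 0 Sp8-negative cells, with differences of 0.64 and 0.86, short of the size rule. In the whole rostral and lateral list, which shares the FGF targets, 6 of 13 tested genes were higher and none lower, against 21.2% and 8.27% of all genes (median difference 0.86, against 0.35 for all genes). Among cells of like gene number 4 were higher and 2 lower (median 0.45).

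The best known partners of Sp8 in area patterning did not separate the groups. Pax6, strongest in rostral and lateral cortex, had 0 to 1027 CPM in Sp8-positive cells, with a median of 19.6 CPM, and 0 to 144 CPM in Sp8-negative cells, with a median of 10.8 CPM. Expression was found in 11 of 18 Sp8-positive and 6 of 12 Sp8-negative cells (difference 0.81, and 0.16 in title set 3). Emx2, a homeobox gene strongest in caudal and medial cortex, had a median of 24.2 CPM in Sp8-positive and 12.1 CPM in Sp8-negative cells and was expressed in 12 Sp8-positive and 6 Sp8-negative cells (difference 0.64). Its relative Emx1 was expressed in 8 Sp8-positive and 5 Sp8-negative cells (difference -0.02). Nr2f1, the caudal nuclear receptor known to oppose rostral identity, was expressed in 4 cells of each group (difference -0.94). In title set 3 the differences of Emx2 and Nr2f1 were -0.20 and -0.55. That of Emx1 was -1.91, with expression in 1 of 8 Sp8-positive and 3 of 7 Sp8-negative cells (within-group SD over all cells 3.46). Over all cells the ranges of these 4 genes overlapped between the groups.

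Among 14 tested caudal and medial genes, 2 were higher and 2 lower, against 21.2% and 8.27% of all genes, with a median difference of -0.10. The counts among cells of like gene number were 2 higher and 6 lower, against 18.1% and 17.5% of all genes (median -0.46). Nr2f2, the nuclear receptor COUP-TFII of caudal and ventral telencephalon, was lower by this rule: it had 0 to 352 CPM in Sp8-positive cells and 0 to 1161 CPM in Sp8-negative cells. It was expressed in 3 of 18 Sp8-positive and 5 of 12 Sp8-negative cells (difference -1.92, within-group SD 3.31). Dmrta1, a doublesex-related factor, was expressed in 2 Sp8-positive and 3 Sp8-negative cells (difference -1.59), and no Sp8-positive cell expressed both Nr2f2 and Dmrta1, which 2 Sp8-negative cells did. Lhx2, the selector gene of cortex against hem, was higher: it had a median of 125 CPM and was expressed in 13 Sp8-positive cells, against a median of 25.9 CPM and 7 Sp8-negative cells (difference 1.26, but 0.66 among cells of like gene number). Lhx9 was expressed in 4 Sp8-positive cells and 1 Sp8-negative cell (difference 1.21). Id4, an inhibitor of helix-loop-helix factors, had a difference of 2.06 over all cells but of -0.30 in title set 3. Fezf2, a factor of medial progenitors and deep-layer neurons, was expressed in 8 Sp8-positive and 5 Sp8-negative cells (difference 0.91).

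Genes of the cortical hem, the signalling centre at the medial edge, were found in few cells. Of 11 tested genes, 1 was higher and 2 lower, against 21.2% and 8.27% of all genes. Ttr, the choroid plexus transthyretin gene, was below 1 CPM in all 18 Sp8-positive cells and was expressed in 2 Sp8-negative cells, the highest at 11115 CPM. The Wnt agonist gene Rspo2 was likewise expressed in 0 Sp8-positive and 2 Sp8-negative cells, and Bmp4 in 0 Sp8-positive and 1 Sp8-negative cells. Differences of -1.65 for Ttr and -1.08 for Rspo2 therefore rest on 2 Sp8-negative cells, and without the highest cell of each group they were -0.63 and -0.39. Zic1, a zinc-finger gene of medial forebrain, lay in the other direction, expressed in 8 Sp8-positive and 2 Sp8-negative cells (difference 1.36). Without title set 3 the Zic1 difference reversed to -0.51. Rspo1 was expressed in 3 Sp8-positive cells and in no Sp8-negative cell. Of the antihem genes at the lateral edge, the Wnt antagonist Sfrp2 was expressed in 5 Sp8-positive and 0 Sp8-negative cells (difference 1.90), and Sfrp1 in 10 Sp8-positive and 5 Sp8-negative cells (difference 1.45, not past the size rule). Nrg1 was expressed in 4 Sp8-positive and 1 Sp8-negative cells and Nrg3 in 0 Sp8-positive and 2 Sp8-negative cells.

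Of the transcription factors that act in both dividing cortical cells and neurons, 4 of 10 tested were higher and none lower, against 21.2% and 8.27% of all genes. The median difference was 0.89 over all cells, 0.65 in title set 3 and 0.09 among cells of like gene number, where 3 of 9 tested were higher and 1 lower. Bcl11a, a zinc-finger factor of cortical area and layer identity also called Ctip1, showed one of the widest contrasts of any list gene. It had 0.08 to 737 CPM with a median of 170 CPM in Sp8-positive cells, and 0.04 to 436 CPM with a median of 0.42 CPM in Sp8-negative cells. Bcl11a was expressed in 15 of 18 Sp8-positive cells (83.3%, 58.6 to 96.4%) and 3 of 12 Sp8-negative cells (25%, 5.49 to 57.2%). The difference was 3.67, above its within-group SD of 3.20, 3.09 in title set 3 and 3.11 among cells of like gene number. Its paralog Bcl11b, Ctip2, was expressed in 7 Sp8-positive and 0 Sp8-negative cells at lower levels, with a highest value of 239 CPM against 1.44 CPM (difference 2.40). Of those 7 cells, 6 were in title set 1 and 1 in title set 3. Bcl11b thus passed the filter through the Sp8-positive cells alone.

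Nfix, a nuclear factor I gene, was expressed in 5 Sp8-positive and 2 Sp8-negative cells (difference 1.08). Its relative Nfia was expressed in all 30 cells at medians of 430 CPM in Sp8-positive and 492 CPM in Sp8-negative cells (difference -0.13). Nfib was expressed in 17 Sp8-positive and 10 Sp8-negative cells (difference 1.15, but -0.53 in title set 3), and Meis2 in 6 Sp8-positive and 2 Sp8-negative cells (difference 0.70).

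Genes of apical radial glia tended to be higher in the Sp8-positive cells. Of 22 tested, 8 were higher and none lower, against 21.2% and 8.27% of all genes, with a median difference of 0.995, and of 1.47 in title set 3. Summed over the measured list of 24 genes, the level had a median of 5315 CPM in Sp8-positive and 2621 CPM in Sp8-negative cells, with ranges of 2025 to 9317 CPM and 557 to 8905 CPM, so that the groups overlapped. Among cells of like gene number the list's median difference was -0.03 beside a median of 0.05 over all genes, with 5 of 20 tested genes higher and 1 lower.

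Gli3, the zinc-finger repressor of Hedgehog signalling that maintains dorsal cortex, had 0 to 822 CPM with a median of 157 CPM in Sp8-positive cells, and 0 to 218 CPM with a median of 0.14 CPM in Sp8-negative cells. Cells expressing it numbered 13 of 18 Sp8-positive and 3 of 12 Sp8-negative cells, and its difference of 3.85 was above its within-group SD of 3.31 (3.08 among cells of like gene number). Nes, the intermediate filament nestin, was expressed in 10 Sp8-positive and 2 Sp8-negative cells, with medians of 47.5 CPM in Sp8-positive and 0.12 CPM in Sp8-negative cells (difference 3.28, SD 3.26, and 1.65 among cells of like gene number). In title set 3 Nes was expressed in 2 of 8 Sp8-positive and 0 of 7 Sp8-negative cells. With a mean of 7.14 CPM in the Sp8-negative cells, Nes passed the filter through the Sp8-positive cells alone. Sox9 and Fabp7, a stem cell factor and the brain lipid-binding protein of radial glia, were expressed in 15 and 14 Sp8-positive cells and in 7 Sp8-negative cells each. Median Fabp7 was 999 CPM in Sp8-positive and 67.4 CPM in Sp8-negative cells (difference 2.72), and median Sox9 229 CPM in Sp8-positive and 32.99 CPM in Sp8-negative cells (difference 2.86, but 0.73 among cells of like gene number). Fgfbp3, an FGF-binding protein gene, was expressed in 6 Sp8-positive and 0 Sp8-negative cells (difference 2.22).

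Of other radial glia genes, Sox2, Vim, Hmga2, Nr2e1 and Sox1 did not pass the size rule. Sox2, the stem cell factor, was expressed in 10 Sp8-positive and 6 Sp8-negative cells, with medians of 14.1 CPM in Sp8-positive and 40.8 CPM in Sp8-negative cells (difference -0.14). Vim, the filament gene vimentin, was expressed in 18 of 18 Sp8-positive and 11 of 12 Sp8-negative cells, at mean levels of 1010 ± 559 CPM in Sp8-positive and 1021 ± 1155 CPM in Sp8-negative cells (SD, n = 18 and 12). Its log2 difference of 1.17 and its mean CPM thus point to opposite sides. Hmga2, a chromatin protein of early progenitors, was expressed in 14 Sp8-positive and 10 Sp8-negative cells (difference 0.89), and Nr2e1, a nuclear receptor of neural stem cells, in 8 Sp8-positive and 4 Sp8-negative cells (difference 0.90). Sox1 had a difference of -0.02.

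Other genes of the Hedgehog pathway differed unevenly. Gas1, a co-receptor for Sonic hedgehog, was expressed in 13 Sp8-positive and 4 Sp8-negative cells, with medians of 65.6 CPM in Sp8-positive and 0.14 CPM in Sp8-negative cells (difference 2.48, but 0.60 among cells of like gene number). Gli2, the activating relative of Gli3, was expressed in 5 Sp8-positive and 0 Sp8-negative cells (difference 1.49). Smo, the signal transducer, had a difference of -2.62 but did not pass the size rule: it was expressed in 4 Sp8-positive and 6 Sp8-negative cells, and 1 Sp8-positive cell had 3191 CPM, which put the mean CPM of Sp8-positive cells (190) above that of Sp8-negative cells (175). Cdon was expressed in 9 Sp8-positive and 3 Sp8-negative cells (difference 1.38, with mean CPM of 74.1 in Sp8-positive and 109 in Sp8-negative cells).

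Genes of the Notch pathway, which keeps progenitors undifferentiated, were higher in 7 of 13 tested and lower in 1, against 21.2% and 8.27% of all genes. The median difference was 1.40 over all cells and 0.51 in title set 3. Among cells of like gene number it was 0.44, with 4 of 11 tested genes higher and 1 lower. Hey1, Notch3 and Jag1 were expressed in no Sp8-negative cell, and such genes can pass the filter only through the Sp8-positive cells. The count of higher genes is thus a description. Hey1, a transcriptional repressor that Notch induces, had 0 to 357 CPM with a median of 5.13 CPM in Sp8-positive cells, while no Sp8-negative cell had more than 0.072 CPM. Hey1 was expressed in 8 of 18 Sp8-positive and 0 of 12 Sp8-negative cells (difference 3.15, SD 2.58), and in title set 3 in 3 of 8 Sp8-positive and 0 of 7 Sp8-negative cells. Only 3 of these 8 cells were among the 9 with Spry2. Hes1, the other repressor, was expressed in 13 Sp8-positive and 5 Sp8-negative cells, with medians of 43.4 CPM in Sp8-positive and 1.87 CPM in Sp8-negative cells (difference 1.75), and Hes5 in 2 Sp8-positive and 1 Sp8-negative cells.

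The receptor gene Notch3 was expressed in 5 Sp8-positive and 0 Sp8-negative cells (difference 1.81) and the ligand gene Jag1 in 4 Sp8-positive and 0 Sp8-negative cells (difference 1.35). Nrarp, a feedback gene of the pathway, was expressed in 8 Sp8-positive and 2 Sp8-negative cells (difference 1.76), and Numb, an inhibitor of Notch that is passed unequally to daughter cells, in 7 Sp8-positive and 1 Sp8-negative cells (difference 1.95). Notch1 was expressed in 10 Sp8-positive and 3 Sp8-negative cells and had a difference of 1.84, yet mean CPM of 149 in Sp8-positive and 222 in Sp8-negative cells, so that it was not counted. The gene of the DNA-binding effector, Rbpj, was lower, expressed in 5 Sp8-positive and 7 Sp8-negative cells (difference -1.34), and the ligand Dll1 was expressed in 5 Sp8-positive and 3 Sp8-negative cells (difference -0.19). Notch3, Jag1, Nrarp and Numb were thus higher side by side while Rbpj was lower.

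**Figure D4:**
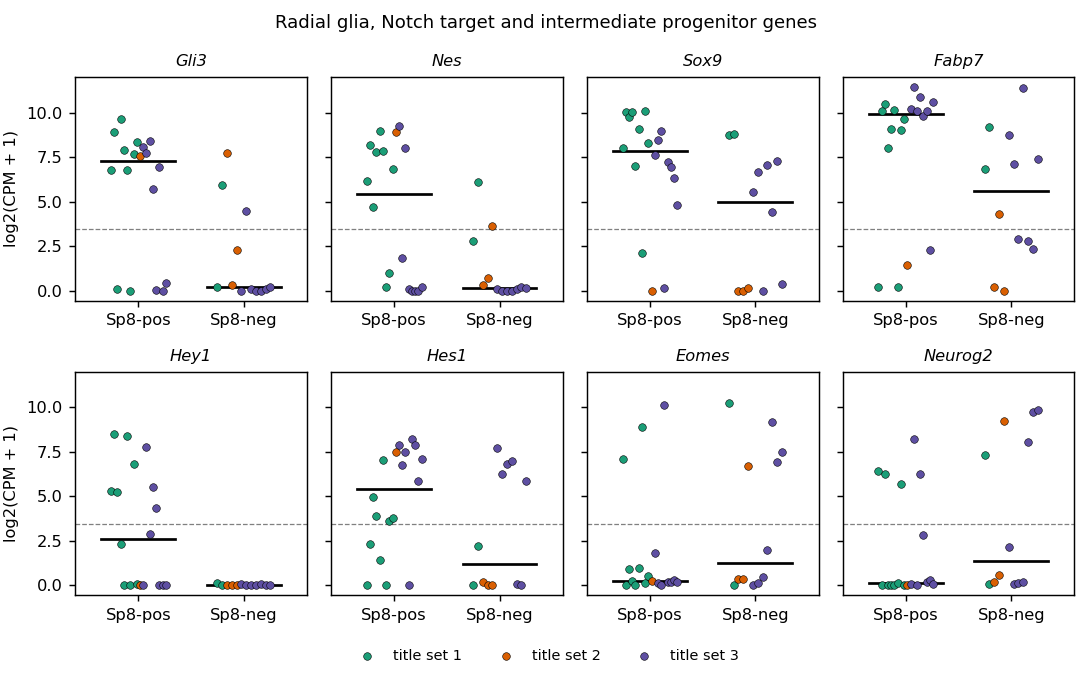
Log2(CPM + 1) of radial glia, Notch target and intermediate progenitor genes in each cell, Sp8-positive left and Sp8-negative right, coloured by title set, with medians as black lines and 10 CPM dashed. Gli3 and Nes have medians of 157 and 47.5 CPM in Sp8-positive cells and under 1 CPM in Sp8-negative cells; Eomes and Neurog2 are expressed in few cells of either group.

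Genes of intermediate progenitors, the committed dividing cells that follow apical radial glia, gave 1 higher and 3 lower of 12 tested, against 21.2% and 8.27% of all genes. The median difference was -0.32 over all cells but 0.03 in title set 3, and 0.18 among cells of like gene number, where 3 were higher and 3 lower. Eomes had 0 to 1110 CPM in Sp8-positive cells and 0 to 1235 CPM in Sp8-negative cells, and was expressed in 3 of 18 Sp8-positive and 5 of 12 Sp8-negative cells (difference -1.89, within-group SD 3.61). Neurog2, the proneural factor of cortical progenitors, was expressed in 5 cells of each group, but its highest values were 293 CPM in Sp8-positive and 928 CPM in Sp8-negative cells (difference -1.94). At least 1 of them was expressed in 6 of 18 Sp8-positive cells (33.3%, 13.3 to 59.01%) and in 5 of 12 Sp8-negative cells (41.7%, 15.2 to 72.3%), and both together in 2 Sp8-positive and 5 Sp8-negative cells. Elavl4, an RNA-binding protein of new neurons, was expressed in 6 Sp8-positive and 7 Sp8-negative cells (difference -2.15), and Neurod1 in 3 Sp8-positive and 0 Sp8-negative cells (difference 1.54). Btg2, which accompanies neurogenic division, was expressed in 12 Sp8-positive and 8 Sp8-negative cells (difference 0.33). These differences lie well inside the spread between cells.

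Neuronal maturation genes gave 3 higher and 1 lower of 20 tested, near the shares of all genes (21.2% and 8.27%). With cells of like gene number 6 of 17 were higher and 2 lower, against 18.1% and 17.5% of all genes. The list's median difference there was 0.71, beside 0.05 over all genes. Tubb3, the neuronal beta-tubulin, was expressed in 13 Sp8-positive and 5 Sp8-negative cells (difference 1.77), and Gap43, a growth cone protein gene, in 3 Sp8-positive and 0 Sp8-negative cells (difference 1.603). By medians in place of means the difference of Gap43 was -0.043. Nsg2, a neuronal vesicle protein gene, was expressed in 2 Sp8-positive and 3 Sp8-negative cells (difference -1.17). Dcx and Stmn2 had differences of 0.69 and 0.53 and did not pass the size rule. Tubulin genes are close paralogs whose reads could be divided between copies.

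Cell cycle genes were expressed in both groups. Of 24 tested G1/S genes 5 were higher, close to the 21.2% of all genes, and none was lower, where 8.27% of all genes were. Their median difference was 0.05 over all cells, -0.11 in title set 3 and -0.43 among cells of like gene number. Among the latter 4 of 23 were higher and 9 lower, against 18.1% and 17.5% of all genes. Of 25 G2/M genes 3 were higher and 4 lower, against 21.2% and 8.27% of all genes. Their median difference was 0.17 over all cells but -0.76 in title set 3. Among cells of like gene number none of the 25 was higher and 13 were lower, against 18.1% and 17.5% of all genes. The median there was -1.18, so that its sign turned. Sp8-positive cells outside that range of gene number expressed 4 to 22 of the G2/M genes, and those within it 1 to 21. Sp8-negative cells outside it expressed 3 each. Pcna, the replication clamp, was expressed in 15 Sp8-positive and 6 Sp8-negative cells (difference 2.24), Rrm2, a subunit of ribonucleotide reductase, in 15 Sp8-positive and 7 Sp8-negative cells (difference 2.44), and Fen1 and Gins2 in 8 and 9 Sp8-positive cells, against 2 and 3 Sp8-negative cells. Top2a had a median of 183 CPM in Sp8-positive and 4.76 CPM in Sp8-negative cells, with 13 Sp8-positive and 5 Sp8-negative cells expressing it (difference 2.38, but 0.17 among cells of like gene number). The proliferation antigen gene Mki67 was expressed in 9 Sp8-positive and 7 Sp8-negative cells (difference -0.32, but -2.58 in title set 3). The mitotic cyclin gene Ccnb1 was expressed in 13 Sp8-positive and 6 Sp8-negative cells (difference 2.03, but -0.91 in title set 3). Kif20b and Cenpf, genes of the mitotic spindle and kinetochore, were lower, expressed in 3 and 11 Sp8-positive cells, against 4 and 10 Sp8-negative cells (differences -1.71 and -1.51).

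In the Wnt pathway 3 of 16 tested genes were higher and none lower, near the share of all genes, while among cells of like gene number none of 15 was higher and 2 were lower. Ctnnb1, beta-catenin, had a median of 628 CPM in Sp8-positive and 325 CPM in Sp8-negative cells and was expressed in 18 of 18 Sp8-positive and 11 of 12 Sp8-negative cells (difference 1.47, within-group SD 1.73). The co-receptor gene Lrp6 was expressed in 6 Sp8-positive and 0 Sp8-negative cells (difference 2.33), but all 6 were in title set 1, and the difference in title set 3 was -0.05. Of the relatives of Sp8, Sp3 was expressed in 9 Sp8-positive and 4 Sp8-negative cells (difference 1.75), Sp4 in 6 Sp8-positive and 2 Sp8-negative cells (difference 0.81), Klf13 in 9 Sp8-positive and 4 Sp8-negative cells (difference 1.64, not past the size rule) and Klf3 in 1 Sp8-positive and 0 Sp8-negative cells. The rostral ETS gene Etv1 was expressed in 1 Sp8-positive and 0 Sp8-negative cells.

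Markers of other lineages were scarce. The counts of list members here stand beside 21.2% of all genes higher and 8.27% lower. Of the 4 tested ventral telencephalon genes none passed the size rule in either direction. Zfhx3 was expressed in 6 Sp8-positive and 3 Sp8-negative cells, and Nkx2-1 in 1 Sp8-positive and 0 Sp8-negative cells. In Cajal-Retzius genes 1 of 3 was lower: Trp73 was expressed in 1 Sp8-positive and 2 Sp8-negative cells, Ebf3 in 0 Sp8-positive and 1 Sp8-negative cells, Nhlh2 in 3 Sp8-positive and 1 Sp8-negative cells and Lhx5 in 2 Sp8-positive and 0 Sp8-negative cells. Embryonic globin transcripts were found in both groups, Hbb-y in 12 of 18 Sp8-positive and 10 of 12 Sp8-negative cells at medians of 145 CPM in Sp8-positive and 301 CPM in Sp8-negative cells, and 2 of 3 erythroid genes were lower (Hba-x, difference -1.40, and Hbb-bh1, difference -1.42). These values moved with the title sets: in title set 3 Hbb-y was expressed in all 8 Sp8-positive and all 7 Sp8-negative cells with a difference of 1.36, against -0.92 over all cells, and with title set as a block the difference of Hba-x reversed to 0.17. Alas2, the erythroid haem enzyme, was expressed in 2 Sp8-positive and 0 Sp8-negative cells. The collagen genes Col3a1 and Col1a2 and the pericyte receptor Pdgfrb were expressed in 1 cell of each group, Acta2 in 1 Sp8-positive cell, and the endothelial Esam in 2 Sp8-positive cells. The microglial genes C1qb, C1qc and Aif1 stayed below 1 CPM in all cells, Cx3cr1 reached 12.6 CPM in 1 Sp8-positive cell, Pdgfra was expressed in 1 cell of each group, and Olig2 stayed below 2 CPM. Among 12 housekeeping genes 1 was higher (Hprt, difference 2.04) and 1 lower (B2m, difference -1.31). Tbp and Sdha had differences of 0.87 and 0.78. Among cells with Sox2 or Pax6 alone the difference of Hprt reversed to -0.13.

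Over all genes, Mpped2, a metallophosphoesterase gene, had the widest difference, 5.22 (within-group SD 3.17). It had 0.04 to 1915 CPM with a median of 230 CPM in Sp8-positive cells and 0 to 188 CPM with a median of 0.29 CPM in Sp8-negative cells, and was expressed in 15 of 18 Sp8-positive and 2 of 12 Sp8-negative cells. In title set 3 its difference was 5.23. Bcap31, a chaperone of the endoplasmic reticulum, was expressed in 13 Sp8-positive cells and 1 Sp8-negative cell (difference 5.205), and Lrp8, a reelin receptor, in 11 Sp8-positive and 1 Sp8-negative cells (difference 4.19). Ndufa10, a complex I subunit, was expressed in 14 Sp8-positive and 2 Sp8-negative cells (difference 5.06), its assembly factor Ndufaf2 in 16 Sp8-positive and 3 Sp8-negative cells (difference 4.10), and the mitochondrial ribosomal gene Dap3 in 12 Sp8-positive and 0 Sp8-negative cells (difference 5.08). Jagn1, a gene of the early secretory pathway, was expressed in 12 Sp8-positive and 0 Sp8-negative cells (difference 5.01). Lyrm4, of iron-sulfur cluster assembly, Hsd17b4, of peroxisomal fatty acid oxidation, and Llph, Zfp637 and Ppdpf completed the 12 highest, with differences between 3.86 and 4.08.

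The widest differences in the other direction were smaller. Ggnbp2 was expressed in 5 Sp8-positive and 8 Sp8-negative cells, with medians of 0.05 CPM in Sp8-positive and 172 CPM in Sp8-negative cells (difference -3.93, within-group SD 3.31). Tnfaip8 was expressed in 2 Sp8-positive and 7 Sp8-negative cells (difference -3.79), and Sdhaf2, an assembly factor of succinate dehydrogenase, in 3 Sp8-positive and 7 Sp8-negative cells (difference -3.42). Chmp3, of the ESCRT membrane machinery, Knstrn, of the mitotic spindle, and Tmem176b had differences of -3.38, -3.38 and -3.32. Tsc22d2, Pkn2, Taf7, Sec11a, Ccdc53 and Erp44 had differences between -3.27 and -2.96. Sec11a, the catalytic subunit of signal peptidase, was expressed in 11 cells of each group, and 7 Sp8-positive cells and 1 Sp8-negative cell lay below 10 CPM (difference -3.07).

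Cells expressing each gene were also counted. Expressed in 8 or more Sp8-positive cells and in no Sp8-negative cell were 18 genes (0.227%), a rule chosen after the values were seen. Besides Spry2, Hey1, Dap3 and Jagn1 they were Dnajc1, Fam213a, Gde1, Gria2, Hist1h4i, Ncoa6, Patl1, Pigs, Prkra, Rdh13, Rictor, Rsu1, Vkorc1 and Zfp326. Spry2 and Hey1 were the list genes among them. With means of at most 1.54 CPM in the Sp8-negative cells, all 18 passed the filter through the Sp8-positive cells alone. They therefore had to differ, and their count is no separate support for the differences above. No gene (0%) was expressed in 6 or more Sp8-negative cells and in no Sp8-positive cell. The groups differ in size and in gene number per cell, which both bear on such counts.

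Sp8 was also set against every tested gene by Spearman's rho over the 30 cells, a measure that contains the group difference itself. The highest values were 0.62 for the histone gene Hist1h4i and between 0.57 and 0.60 for Hnrpll, Pgd, Ergic1, Ndufa10, Inip, Spag9 and Ppdpf. Within the 18 Sp8-positive cells rho was 0.42 for Hist1h4i, 0.52 for Hnrpll, 0.44 for Pgd, 0.37 for Ergic1, 0.25 for Ndufa10, 0.36 for Inip, 0.28 for Spag9 and 0.56 for Ppdpf. The lowest values over the 30 cells were -0.66 for Atxn3, -0.62 for the nucleoporin gene Nup37, -0.59 for Gtpbp8 and -0.58 for the mevalonate kinase gene Mvk. Gtpbp8 was at 0 in all Sp8-positive cells and was expressed in 2 Sp8-negative cells. Within the Sp8-positive cells rho was -0.71 for Nup37, -0.64 for Atxn3 and -0.56 for Mvk. Of the list genes, Notch1 and Emx1 had the highest rho with Sp8 within the Sp8-positive cells, 0.69 and 0.64. Neither gene passed the size rule. These cells share title sets and depth, so that the values are descriptions.

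**Figure D5:**
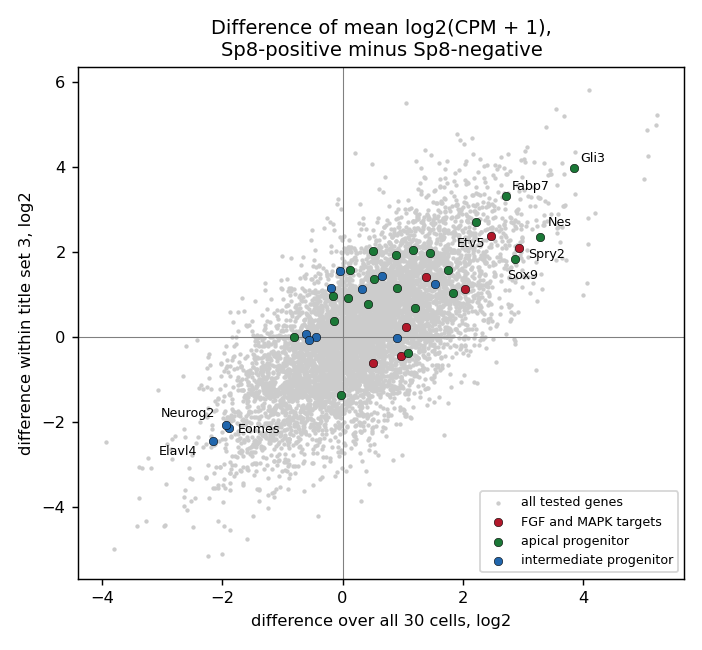
Log2 difference of each tested gene over all 30 cells (horizontal) and within title set 3 alone (vertical, 8 Sp8-positive and 7 Sp8-negative cells, which are part of the 30), with FGF targets, apical and intermediate progenitor genes in colour. Gli3 stands at 3.85 and 3.99, Spry2 at 2.93 and 2.08, and Eomes at -1.89 and -2.14.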

How the data were processed

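Full-length single-cell libraries of 65 cells were analysed. The authors deposited whole-number read counts per gene for 11971 genes, with TopHat2, HTSeq and the mouse build mm9 named per the submitters' processing notes, without versions or roles. The sources used here name no annotation. The kit keeps neither strand nor molecular identifiers, so that reads are not independent molecules and overlapping genes or close paralogs cannot be told apart.

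Counts were scaled to CPM by each cell's total and logged as log2(CPM + 1), with Python 3.11.15, numpy 2.4.6, pandas 2.3.3 and scipy 1.17.1; figures used matplotlib 3.10.9. Cells needed 1000000 reads. Kept cells had pairwise correlations of 0.292 to 0.516 and no identical columns. Genes with a mean of 10 CPM or more were tested by the size rule, Sp8, Neurod6, Tbr1 and Dlx5 apart, as the choice of cells used them. Shares carry exact Clopper-Pearson 95% intervals. The size rule was run on simulated counts to check the sign of its differences, and no error rate is given here.

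Of 352 genes in 23 lists, 306 were measured. Members and lists were chosen with earlier results of these data known. Named genes are the 12 with the widest difference in each direction that keep the size without each group's highest cell, up to 4 per list with more where a list is described member by member, 32 fixed genes, and the 8 highest and 4 lowest rho with Sp8; exceptions are stated. Alternatives were scran 1.30.0 size factors and edgeR 4.0.16 TMM scaling in R 4.3.3, a pseudocount of 10, other filters, depths, thresholds and cell sets, medians, each title set left out, and 6 added after seeing the data. Promoters for 6 of 7 genes looked up came from RefSeq; Hey1 had none. Some genes of the lists are not reported here.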

Additional observations from a re-analysis of the deposited data

Results flagged for a closer look

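Sp8 also appeared among cells left out of the comparison. Of the 11 cells with Dlx5, 9 had Sp8 at 10 CPM or more (81.8%, exact 95% Clopper-Pearson interval 48.2 to 97.7%), with a median of 850 CPM over the 11 and a highest value of 4119 CPM. In the 21 cells with Neurod6 or Tbr1 none did, and the highest value was 0.719 CPM. The 9 cells carry a signal above that of the Sp8-negative cells in data outside the comparison. The median of 850 CPM lies above the 172 CPM of the 18 Sp8-positive cells. No explanation was tested.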

How the results depend on the processing

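Main counts were 1686 genes higher and 656 lower. A pseudocount of 10 gave 713 and 241, and a difference of medians gave 1076 higher. Leaving out title set 1 gave 1302 lower, and leaving out title set 3, after which no set was left for the condition on its sign, gave 2716 higher and 1398 lower. Of the alternatives added after seeing the data, only title set 3 gave 1574 lower, centring on the median difference 1176 lower, and only cells of 2000 to 3400 expressed genes 1329 lower, where higher calls were 50.9% of all calls. With title set as a replicate block the counts were 1455 higher and 902 lower, and without the condition on the sign in title set 3 they were 1928 and 713. The remaining counts stayed within 1.5 times the main ones. A minimum of 5000000 reads and leaving out cells with 3 or more interneuron genes removed no cell. Over 111 named genes and 23 alternatives, 2537 of 2553 values moved by less than 1 within-group SD without a change of sign in a gene past the size rule, 12 moved further and 4 reversed: Hprt (-0.13 among cells with Sox2 or Pax6), Zic1 (-0.51 without title set 3), Gap43 (-0.043 by medians) and Hba-x (0.17 with title set as a replicate block). Of 78 named genes past the size rule, 69 kept their direction under all 23, a difference of 0 counted as lost. The median difference of FGF targets ranged from 0.51, among cells of 2000 to 3400 expressed genes, to 2.13, with title set as a replicate block. The title sets are no replicates of the pool, and the labels do not say what links their cells. A value of 10 CPM rests on at least 76.7 reads.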
